A study of Mus musculus with 8 samples.

Results

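The methionine cycle and transsulfuration enzymes were followed in liver RNA-Seq of db/db mice through 10 genes chosen by symbol (Mat1a, Gnmt, Pemt, Nnmt, Ahcy, Bhmt, Bhmt2, Mtr, Cbs and Cth), out of 21532 genes in the table of normalized counts. All 10 were present, and all 10 were among the 15989 genes whose normalized count averaged 10 or more and that entered the test. The animals were male db/db mice on a C57BL/6J background, which carry a leptin receptor that does not work and become obese and diabetic; the mutation was shared by both groups, so no lean mouse stands beside them. From 8 weeks of age they received control or AF1 peptide by retro orbital injection, at 5 mg/kg body weight and 2 times per week for 5 weeks. AF1 peptide is a short synthetic stretch of estrogen receptor alpha joined to a TAT sequence that carries it into cells, made to act on insulin signaling. Each group had 4 mice with 1 library per mouse, and the comparison asked how hepatic gene expression differed between AF1 peptide-treated and control db/db mice.

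The methionine cycle turns dietary methionine into S-adenosylmethionine (SAM), the methyl donor of most methyltransferases, and the liver carries most of this flux. After a methyl group is passed on, S-adenosylhomocysteine (SAH) is left and is split to homocysteine, which is either methylated back to methionine, with betaine or methyl-folate as the donor, or sent through transsulfuration to cysteine and glutathione. MAT1A makes SAM, GNMT, PEMT and NNMT spend it, AHCY splits SAH, BHMT, BHMT2 and MTR rebuild methionine, and CBS and CTH lead homocysteine to cysteine.

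Sequence mattered for how far 3 of these genes can be read. Bhmt and Bhmt2 encode related methyltransferases. In the GENCODE M21 transcripts their closest coding stretch of 60 bases (positions 878 to 937 of 1224 in Bhmt and 851 to 910 of 1092 in Bhmt2) had 59 identical bases. These lie on both sides of the single base that differs, which is in capitals. The longest identical run of the coding sequences was 59 bases. The stretch is shown because a read of 50 bases that lies inside such a run cannot be placed in either gene.
Bhmt: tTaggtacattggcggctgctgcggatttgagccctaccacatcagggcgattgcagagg
Bhmt2: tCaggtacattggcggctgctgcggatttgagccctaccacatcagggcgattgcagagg
Only 10 words of 50 bases were common to both genes, a small part of either transcript. More was shared with gene copies. Of the 50-base words of Bhmt, 61.5% also lay in transcripts of other genes, among them Bhmt-ps1 and Gm5096, and of those of Ahcy 75.6% did, in Gm4737, Gm4913, Gm5638 and Gm9826. The share was 6.32% for Bhmt2, 1.40% for Cbs, 0.153% for Pemt and 0 for Mat1a, Gnmt, Nnmt, Mtr and Cth. How reads that match several genes were counted is not given in the sources used here, so that the levels of Bhmt and Ahcy are uncertain. Whether strand was used in counting is not given either, and Pemt, Ahcy and Mtr each overlap 1 other annotated gene (Gm38498, Gm39966 and Gm10336).

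Promoter sequences (250 bases before the annotated start, RefSeq, GRCm38.p6) were given for 7 of the 10 genes; Mat1a, Cth and Nnmt had no entry. They are shown for 4 genes, Gnmt and Cbs, whose level in 1 treated mouse stood above all others, and Bhmt and Mtr, whose level there did not. On both strands, 4 motifs were searched, none of which contains another: TATAA (TATA box core), CACGTG (E-box), TGACG (cyclic AMP response element half-site) and AGAACA (glucocorticoid response element half-site). Capitals mark the matches.
Gnmt promoter, chr17:46729166-46729415, minus strand: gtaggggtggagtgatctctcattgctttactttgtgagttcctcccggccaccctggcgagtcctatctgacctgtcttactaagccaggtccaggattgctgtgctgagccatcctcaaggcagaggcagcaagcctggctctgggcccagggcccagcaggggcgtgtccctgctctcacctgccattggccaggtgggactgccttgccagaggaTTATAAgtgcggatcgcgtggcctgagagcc
Cbs promoter, chr17:31637206-31637455, minus strand: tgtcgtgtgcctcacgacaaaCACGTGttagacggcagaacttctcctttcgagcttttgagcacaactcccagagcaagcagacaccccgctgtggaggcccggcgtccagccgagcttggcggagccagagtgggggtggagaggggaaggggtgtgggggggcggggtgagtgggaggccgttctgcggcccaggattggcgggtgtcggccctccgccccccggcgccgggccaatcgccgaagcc
Bhmt promoter, chr13:93637759-93638008, minus strand: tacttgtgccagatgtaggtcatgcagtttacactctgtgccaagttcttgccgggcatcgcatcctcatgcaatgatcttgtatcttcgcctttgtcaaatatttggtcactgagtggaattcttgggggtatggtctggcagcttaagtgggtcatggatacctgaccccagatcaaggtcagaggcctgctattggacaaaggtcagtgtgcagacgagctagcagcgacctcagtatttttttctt
Mtr promoter, chr13:12258114-12258363, minus strand: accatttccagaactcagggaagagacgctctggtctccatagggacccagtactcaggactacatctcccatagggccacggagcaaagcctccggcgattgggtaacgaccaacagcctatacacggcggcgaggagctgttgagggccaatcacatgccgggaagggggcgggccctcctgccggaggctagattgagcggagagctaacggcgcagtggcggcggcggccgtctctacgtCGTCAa
In Gnmt the run in capitals reads as TATAA on both strands, 31 and 30 bases before the start, a motif held by 22.8% of all 32851 promoters. One Pemt promoter held TATAA 33 bases before its start. Cbs held 1 CACGTG, 229 bases before the start (6.02% of all promoters), and Mtr held 1 TGACG on the other strand, 6 bases before it (17.8%). AGAACA (16.1%) had no match in the 7 genes, and Bhmt, Bhmt2 and Ahcy had no match to any of the 4 motifs. The Mtr, Bhmt2 and Cbs promoters were rich in CG pairs (20, 20 and 21, against a median of 6 over all promoters), while Bhmt had 5 and Gnmt 6.

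Recovered reads per mouse ranged from 23031880 to 45117528. The library of AF1 peptide replicate 1 stood apart: on the first principal component of log2 expression (39.3% of the variance) it lay at 74.2, against -21.8 to 2.33 for the other 7 mice. Its share of mitochondrial reads was 20.8%, against 34.3 to 37.8% in the other treated mice and 22.4 to 34.3% in control mice. Each comparison is therefore given with and without it. Alb, the defining product of hepatocytes, was at 1224159.7 normalized counts or more in all 8 libraries. Summed Kupffer cell markers (6 of 6 listed) were 4341 to 5473 normalized counts in control mice, 4851 to 4941 in AF1 peptide replicates 2 to 4 and 1946 in replicate 1. Summed periportal hepatocyte markers (6 of 6) were 83986 to 97231, 56506 to 101476 and 180567 in the same order, and summed markers of all hepatocytes (6 of 6) 2381441 to 2505347, 2063470.4 to 2483493 and 1689184. Replicate 1 was also the highest mouse in summed pericentral hepatocyte markers (191957, against at most 182644), and the lowest in those of stellate cells (3305), biliary epithelium (803) and red blood cells (27111). Such sums follow their most abundant genes. Of the pericentral markers 3 of 6 were highest in replicate 1, but Glul was lowest there (7792, against 14389 or more). Of the periportal markers 4 of 6 were highest in replicate 1, while Cyp2f2 (10514) and Hsd17b13 (9822) lay within the control range. Only 4 of 6 stellate, 1 of 5 biliary and 2 of 5 red blood cell markers were at their lowest in replicate 1. Spp1 alone made 667 of the 803 biliary counts. In whole liver, fewer cells of a type and less RNA per cell cannot be told apart.

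**Figure D1:**
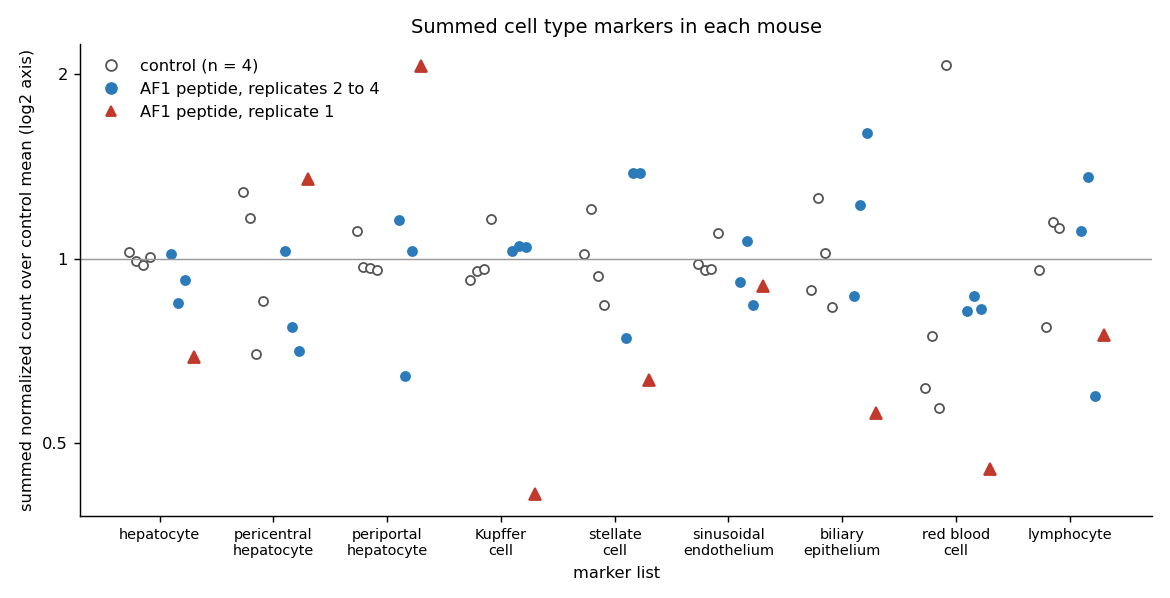
Summed normalized counts of each marker list in each mouse, divided by the mean of the 4 control mice (log2 axis); open circles are control mice, filled circles AF1 peptide replicates 2 to 4 and triangles AF1 peptide replicate 1. The triangle is the lowest point for the hepatocyte, Kupffer cell, stellate cell, biliary epithelium and red blood cell lists and the highest for the pericentral and periportal hepatocyte lists. Abundant genes weigh most in a sum, and the single markers of a list did not all follow it. Adipocyte and pancreas acinar lists, with 2 and 1 of 5 listed genes in the table, are not drawn.

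In control livers these genes covered a very wide range of levels. Per kilobase of annotated exon, Bhmt (19625 ± 5333 normalized counts, SD, n = 4), Mat1a (17877 ± 3101) and Ahcy (13957 ± 3023) were the most abundant, followed by Gnmt (8203 ± 2091), Pemt (3410.3 ± 303) and Bhmt2 (2143 ± 145). Nnmt (1971 ± 796), Cth (981 ± 259) and Cbs (791 ± 119) were lower, and Mtr, at 8.38 ± 1.27, was far the lowest. Neighbours in this order whose ranges over the 4 mice overlapped were Bhmt and Mat1a, Mat1a and Ahcy, Bhmt2 and Nnmt, Nnmt and Cth, and Cth and Cbs; the other neighbours did not overlap. Thus betaine-dependent remethylation had transcripts at far higher levels than folate-dependent remethylation: the Bhmt level per kilobase was 1544 to 2729 times that of Mtr in control mice. The lengths are those of all annotated exons of a gene, so that a gene with long, little used exons is understated.

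**Figure D2:**
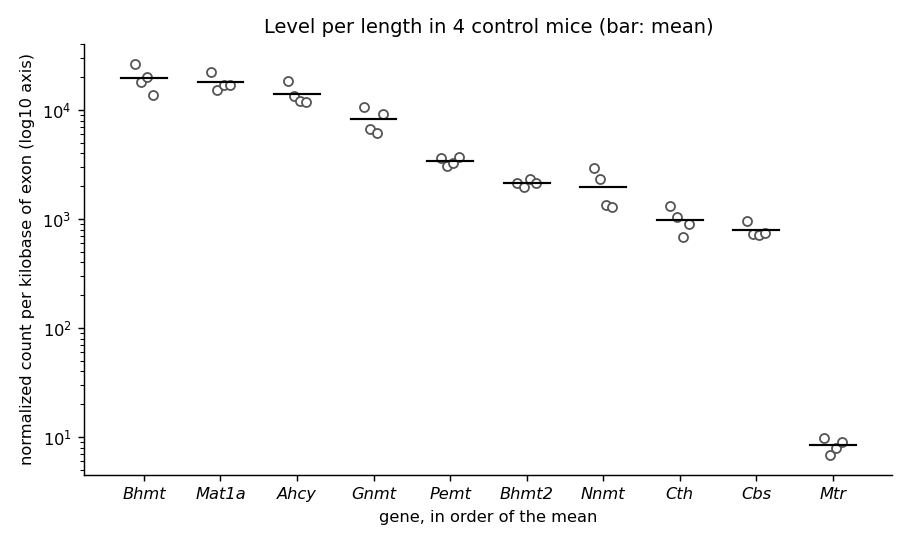
Normalized counts per kilobase of annotated exon (log10 axis) of the 10 genes in the 4 control mice (circles), with the mean as a bar, in order of the mean. Bhmt, Mat1a and Ahcy lie at 11939 or above, and Mtr between 6.82 and 9.76.

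The spread between control mice differed among the genes as well. The coefficient of variation was 6.78% for Bhmt2 and 8.90% for Pemt, between 15.0 and 27.2% for Cbs, Mtr, Mat1a, Ahcy, Gnmt, Cth and Bhmt, and 40.4% for Nnmt. Read counting alone would give 0.293 to 1.89% for 9 of the genes, far under the spread between mice. For Mtr, with 38 to 101 reads per library, counting alone gave 11.5%, beside a coefficient of variation of 15.1% between mice. Control replicate 1 was the highest of the 4 control mice in 8 of the 10 genes, all but Pemt and Bhmt2.

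Comparing AF1 peptide-treated with control db/db mice, none of the 10 genes differed at an unadjusted p value under 0.05 by limma on log2(normalized count + 1), nor did any by edgeR on the recovered reads. DESeq2 gave no p value to Gnmt and Nnmt, and none of the other 8 was under 0.05. Over all genes tested, limma gave 990 of 15989 (6.19%) such a p value, and 0 (0%) after Benjamini-Hochberg adjustment (edgeR 0, DESeq2 3). The groups overlapped in each of the 10 genes, while they did not overlap in 3.9% of all genes tested. The log2 fold change was positive for 9 of the 10 genes with a median of 0.17 (all genes, -0.01), but most of this came with 1 mouse. Without AF1 peptide replicate 1 it was positive for 4 and negative for 6, with a median of -0.04 (all genes, -0.00), and 7 of the 10 genes had changed sign. In that mouse 7 of the 10 genes were at the highest level of all 8 mice and more than 1.3 times the next highest, as were 6.44% of all genes tested. The size of the fold change also depended on the estimator for the genes far up in that mouse: edgeR, which compares group levels on the count scale, gave 1.43 for Nnmt (limma, 0.75), 0.88 for Cth (0.14), 0.76 for Gnmt (0.20) and 0.31 for Cbs (0.14), with unadjusted p = 0.0684, 0.225, 0.234 and 0.387.

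**Figure D3:**
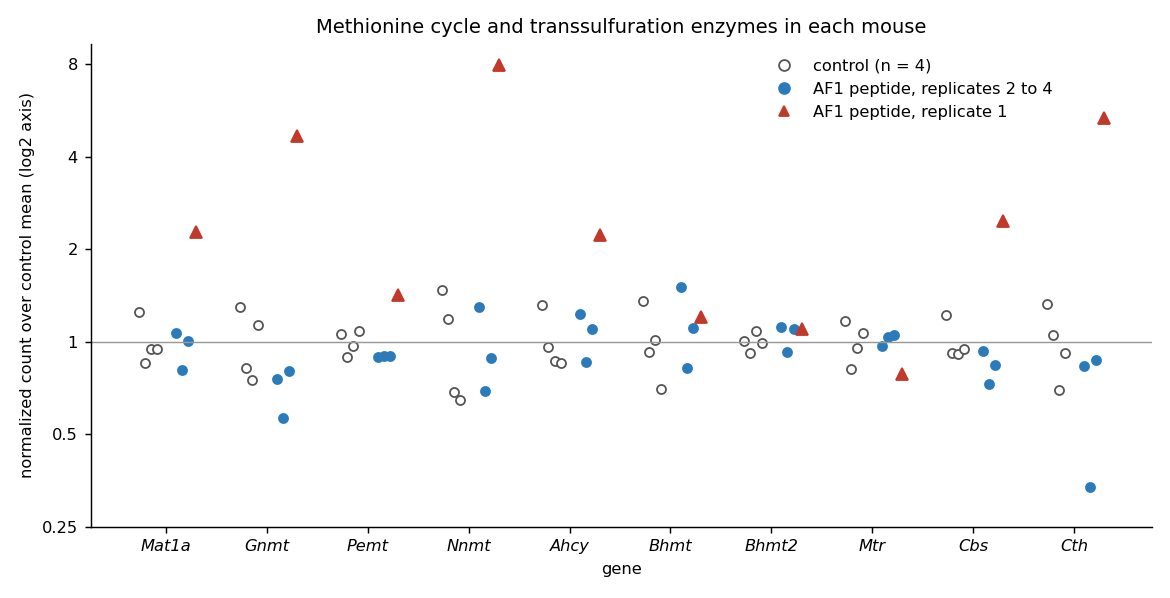
Normalized count of each gene in each mouse, divided by the mean of the 4 control mice (log2 axis), with open circles for control mice, filled circles for AF1 peptide replicates 2 to 4 and triangles for AF1 peptide replicate 1. The triangle is the highest point for Mat1a, Gnmt, Pemt, Nnmt, Ahcy, Cbs and Cth, lies within the other points for Bhmt and Bhmt2, and is the lowest for Mtr.

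SAM synthesis in the adult liver depends on MAT1A, methionine adenosyltransferase 1A. Mat1a normalized counts were 77572, 52850.3, 58712 and 58849 in control replicates 1 to 4, and 141034, 66159.8, 50092 and 62164 in AF1 peptide replicates 1 to 4. AF1 peptide replicate 1 was 1.82 times the highest other mouse, whereas replicates 2 and 4 lay within the control range and replicate 3 just below it. The log2 fold change was 0.26 ± 0.30 (SE; limma, unadjusted p = 0.413; adjusted p = 0.862), and -0.05 ± 0.18 (unadjusted p = 0.766) without replicate 1.

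Mat2a encodes the SAM synthetase subunit found outside the liver and in growing or injured liver. Its values were 1171, 1313, 1083 and 1266 in control and 1473, 1313, 1068 and 1333 in AF1 peptide-treated mice, close together in all 8 (limma, log2 fold change 0.10 ± 0.12, unadjusted p = 0.423). Per kilobase of exon Mat1a was 52.1 to 85.7 times as high as Mat2a in control mice, 60.3 to 65.2 times in AF1 peptide replicates 2 to 4 and 124 times in replicate 1.

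Of the methyltransferases that use SAM, glycine N-methyltransferase takes up surplus SAM in hepatocytes. Gnmt was 12787, 8154, 7442 and 11187 in control mice, and 46200.3, 7474, 5572 and 7953 in AF1 peptide-treated mice. Replicate 1 was 3.61 times the highest other mouse, yet the other treated mice lay at the lower end of the control range (replicates 2 and 4) or below it (replicate 3). With all mice the log2 fold change was 0.20 ± 0.55 (limma, unadjusted p = 0.719; adjusted p = 0.949), an interval of -1.02 to 1.43 that spans a fall and a rise of more than 2-fold. Without replicate 1 it was -0.48 ± 0.19 (unadjusted p = 0.0285; adjusted p = 0.485), and Gnmt was then the single gene of the 10 under 0.05. At that setting 10.1% of all genes tested were under 0.05.

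Phosphatidylethanolamine N-methyltransferase makes phosphatidylcholine for membranes and lipoproteins and is a major user of SAM in the liver. Pemt was 7629, 6389, 6927 and 7756 in control mice and 10203, 6399.9, 6430.4 and 6467 in AF1 peptide-treated mice. Replicate 1 was 1.32 times the highest other mouse, and replicates 2 to 4 were nearly equal (6432 ± 33.5, SD) near the lowest control value. Its log2 fold change was 0.01 ± 0.16 (limma, unadjusted p = 0.936; adjusted p = 0.99), and -0.15 ± 0.10 (unadjusted p = 0.16) without replicate 1. It was also negative when libraries were scaled to equal totals (-0.08), without control replicate 2 (-0.04) and without control replicate 3 (-0.00). Gnmt over Pemt, per kilobase, was 1.87 to 2.92 in control mice, 1.51 to 2.15 in AF1 peptide replicates 2 to 4, and 7.90 in replicate 1, so that the methyltransferases differed in how far that mouse stood above the others.

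Nicotinamide N-methyltransferase methylates nicotinamide, a form of vitamin B3, and so ties SAM to NAD metabolism. Nnmt was the most variable gene of the set in control mice (4594, 3696, 2127 and 2009.9), and was 24679, 4035, 2150.1 and 2740.3 in AF1 peptide-treated mice. Replicate 1 was 5.37 times the highest other mouse, while replicates 2 to 4 lay inside the control range. The log2 fold change of 0.75 ± 0.65 was the largest of the 10 genes (limma, unadjusted p = 0.273; adjusted p = 0.825), and it was -0.02 ± 0.28 (unadjusted p = 0.94) without replicate 1.

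SAH, which inhibits methyltransferases when it builds up, is split by adenosylhomocysteinase. Ahcy was 51563, 37609, 33941 and 33488 in control mice and 86801, 48056, 33609 and 42962 in AF1 peptide-treated mice. Replicate 1 was 1.68 times the highest other mouse, replicates 2 to 4 lay in the control range, and control replicate 1 was well above the other control mice. Ahcy had the smallest p value of the set (limma, log2 fold change 0.36 ± 0.28, unadjusted p = 0.223; adjusted p = 0.804), and 0.09 ± 0.19 (unadjusted p = 0.631) without replicate 1. It was positive in both.

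The copies of Ahcy that have their own entry followed it closely. Gm4737 was 31816, 21812, 20901 and 19489 in control mice and 50704, 27985, 20835 and 26454 in AF1 peptide-treated mice, and Gm9826 ranged from 7223 to 13641 in control and from 9988 to 20536 in treated mice. Since their transcripts share sequence with Ahcy, reads of one gene may have been counted for another, and the 3 cannot be read as separate measurements.

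Genes of homocysteine remethylation were not at their highest in replicate 1. Betaine-homocysteine methyltransferase, which uses betaine made from choline, is almost confined to liver and kidney. Bhmt was 153437, 104672, 114391 and 79497 in control mice and 135709.8, 169782, 92754 and 125001 in AF1 peptide-treated mice, with the highest value in treated replicate 2 and the lowest in control replicate 4. The groups overlapped over most of their range (limma, log2 fold change 0.22 ± 0.27, unadjusted p = 0.445; adjusted p = 0.873), also without replicate 1 (0.19 ± 0.27, unadjusted p = 0.493). The fold change was 0.06 without control replicate 4, 0.08 without AF1 peptide replicate 2, 0.37 without AF1 peptide replicate 3 and 0.38 without control replicate 1. Bhmt-ps1, a copy that shares sequence with Bhmt, ranged from 2372 to 5349.9 in control and from 3505 to 5436 in treated mice, again with the highest value in treated replicate 2 and the lowest in control replicate 4. Gm5096, another such copy, did not follow this order: it ranged from 5621 to 10647 in control and from 4259.8 to 8685 in treated mice, highest in control replicate 1 and lowest in treated replicate 3 (limma, log2 fold change -0.13, unadjusted p = 0.625; adjusted p = 0.927).

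BHMT2 methylates homocysteine with S-methylmethionine rather than betaine as the donor. Bhmt2 was 5319, 4863, 5736 and 5228 in control mice and 5814, 5919.6, 4908 and 5808 in AF1 peptide-treated mice. Treated replicates 1, 2 and 4 lay slightly above every control mouse and replicate 3 near the lowest. The difference was small and did not pass the test (limma, log2 fold change 0.08 ± 0.10, 95% interval -0.14 to 0.31, unadjusted p = 0.426; adjusted p = 0.866), and with libraries scaled to equal totals it was -0.01. This interval was among the narrowest of the set, and it leaves out a change of 1.3-fold in either direction.

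Methionine synthase takes the methyl group from folate and needs cobalamin, vitamin B12. Mtr was 83.2, 58.1, 68.1 and 76.2 in control mice and 56.0, 69.4, 74.1 and 75.3 in AF1 peptide-treated mice. Replicate 1 was here the lowest of all 8 mice, but close to control replicate 2 (56.0 against 58.1). Read counting alone gave 11.5% for this gene in control mice, so that this rank says little. For Mtr the log2 fold change was -0.05 ± 0.18 (limma, unadjusted p = 0.776; adjusted p = 0.967), the single negative value of the set, and 0.04 ± 0.18 (unadjusted p = 0.817) without replicate 1; it was 0.03 without control replicate 1. Mtrr, whose product reactivates methionine synthase, ranged from 123 to 208 in control and from 195 to 230.5 in treated mice, with the groups overlapping (limma, log2 fold change 0.21, unadjusted p = 0.259; adjusted p = 0.823).

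Transsulfuration begins with cystathionine beta-synthase, which joins homocysteine to serine. Cbs was 7247, 5434, 5391 and 5618 in control mice and 14593, 5538, 4306 and 4985 in AF1 peptide-treated mice. Replicate 1 was 2.01 times the highest other mouse, replicate 2 lay in the control range, and replicates 3 and 4 below it. For Cbs the log2 fold change was 0.14 ± 0.32 (limma, unadjusted p = 0.685; adjusted p = 0.94), and -0.26 ± 0.13 (unadjusted p = 0.0742; adjusted p = 0.527) without replicate 1.

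Cystathionine gamma-lyase, encoded by Cth, releases cysteine from cystathionine. Cth was 3639.9, 2884, 1911 and 2513 in control mice and 14656, 2285, 920.2 and 2378 in AF1 peptide-treated mice. Replicate 1 was 4.03 times the highest other mouse, replicates 2 and 4 lay in the control range, and replicate 3 was under the lowest control mouse. For Cth the log2 fold change was 0.14 ± 0.66 (limma, unadjusted p = 0.841; adjusted p = 0.976), with the widest interval of the set (-1.32 to 1.59), and -0.64 ± 0.30 (unadjusted p = 0.0564; adjusted p = 0.504) without replicate 1. Without control replicate 3 it was -0.02. Cth over Cbs, per kilobase, was 0.951 to 1.42 in control mice, 1.11, 0.573 and 1.28 in AF1 peptide replicates 2 to 4, and 2.69 in replicate 1.

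**Figure D4:**
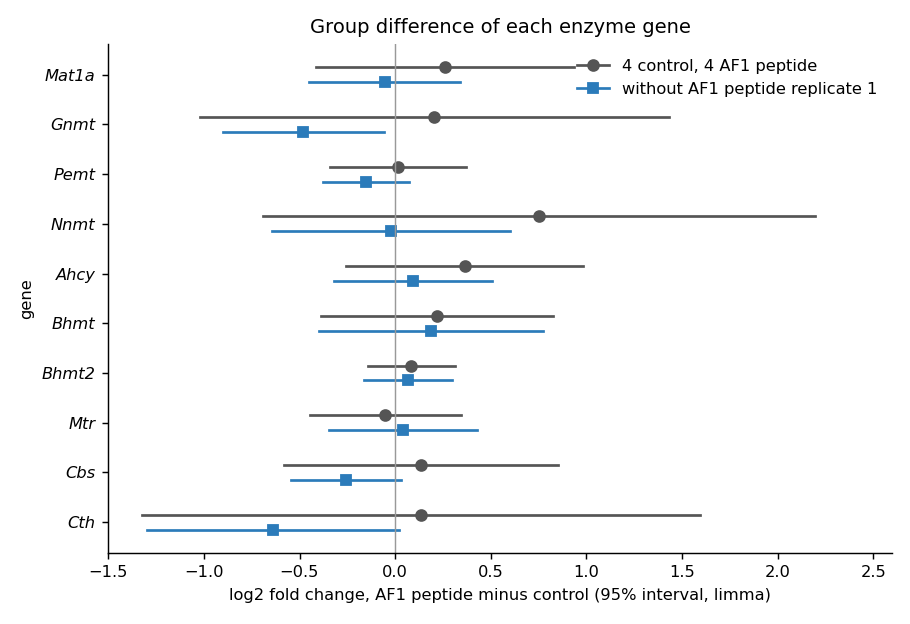
Log2 fold change of AF1 peptide-treated minus control mice for each gene, with its 95% interval from limma, for 4 against 4 mice (circles) and without AF1 peptide replicate 1 (squares). All 10 intervals hold 0 with 8 mice; without replicate 1 that of Gnmt lies below 0 and those of most other genes narrow.

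Set against the other 3 treated mice, replicate 1 thus held 8.30 times their mean for Nnmt, 7.87 times for Cth and 6.60 times for Gnmt, 2.95 times for Cbs, 2.37 for Mat1a, 2.09 for Ahcy and 1.59 for Pemt, but 1.05 times for Bhmt and for Bhmt2 and 0.768 times for Mtr. Transcripts of the enzymes that make SAM, spend it, split SAH and carry transsulfuration were high together in this liver, and those of the remethylating enzymes were not. In the same library 5 of the 6 Kupffer cell markers were at their lowest of all 8 mice, and 4 of the 6 periportal markers (Hal, Sds, Gls2 and Pck1) at their highest. The remaining periportal markers were not high there. Cyp2f2 was 10514, against 9901 to 14066 in control mice, and Hsd17b13 was 9822, against 9211 to 16871. Of the 6 hepatocyte markers, Alb, Apoa1 and Ttr were at their lowest there and Tat, Cps1 and Serpina1a at their highest. The part of cell composition and of RNA quality in the level of the enzymes in this mouse was not tested.

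AF1 peptide replicate 3 stood at the other end. It was the lowest of the 7 other mice in Mat1a, Gnmt, Cbs and Cth, and below every control mouse in these 4 genes. Replicate 2 lay within the control range in 8 genes and above it in Bhmt and Bhmt2, and replicate 4 lay within it in 8 genes, above it in Bhmt2 and below it in Cbs.

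Genes whose pattern over the 8 mice was most like that of a member were sought for Ahcy and Nnmt, the genes with the smallest p values, among 12433 genes averaging 50 or more, by the root mean square distance of log2 values centred on their mean. For Ahcy they were its copy Gm4737 (distance 0.0423), Gtse1 (0.0994) and Shb (0.101). Gtse1 was 86.5 to 124 in control mice, 98.0 to 117 in replicates 2 to 4 and 250.1 in replicate 1. For Nnmt they were Gm3787 (0.274), A1bg (0.317) and Mmd2 (0.322), of which A1bg was 126 to 306 in control mice, 167 to 268 in replicates 2 to 4 and 1976 in replicate 1. All of them were likewise highest in replicate 1, the point that weighs most in such a distance.

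Around the member enzymes, 57 genes of 7 neighbouring steps were listed and all 57 were tested. Only 3 had an unadjusted p value under 0.05 by limma, 1 higher and 2 lower in AF1 peptide-treated mice (5.26%, beside 6.19% of all genes tested), with a median log2 fold change of -0.00 (all genes, -0.01). None had an adjusted p value under 0.05, the smallest being 0.763 for these 3. No gene passed among the relatives of SAM synthetase and SAH hydrolase (0 of 4, median 0.03), folate and cobalamin supply (0 of 8, 0.05), other small-molecule methyltransferases (0 of 9, -0.05) and methionine salvage and polyamines (0 of 10, -0.02).

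**Figure D5:**
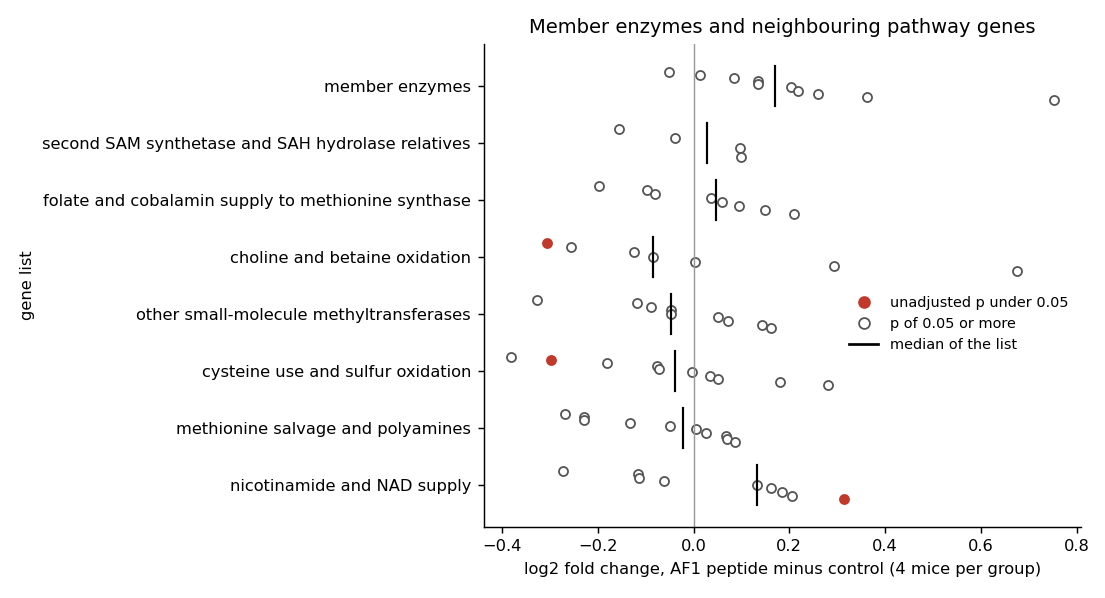
Log2 fold change (AF1 peptide minus control, 4 mice per group) of each gene of the member set and of the 7 neighbouring lists, with the list median as a bar; filled points have an unadjusted p value under 0.05. The 3 filled points are Chdh, Gclm and Nmnat3, and the list medians lie between -0.08 and 0.17.

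Chdh encodes choline dehydrogenase, the mitochondrial enzyme that starts the making of betaine for BHMT. It was 2269, 3068, 2235 and 2592 in control mice and 1882, 2184, 1975 and 2120.4 in AF1 peptide-treated mice, so that every treated mouse lay under every control mouse. It was lower by limma (log2 fold change -0.31 ± 0.12, unadjusted p = 0.0246; adjusted p = 0.763), and it was the single gene of 7 in choline and betaine oxidation under 0.05 (list median -0.08). The unadjusted p value was above 0.05 without control replicate 2 (-0.21, unadjusted p = 0.0731), without control replicate 4 (-0.29, unadjusted p = 0.0534) and without AF1 peptide replicate 3 (-0.29, unadjusted p = 0.0508). It stayed under 0.05, at 0.0441, without AF1 peptide replicate 1.

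Downstream of cysteine, glutamate-cysteine ligase makes the precursor of glutathione. Gclm, its modifier subunit, was 2797, 3309.8, 2433 and 2403 in control mice and 2213, 2225, 1874 and 2562 in AF1 peptide-treated mice, with treated replicate 4 inside the control range. It was lower (limma, log2 fold change -0.30 ± 0.13, unadjusted p = 0.0465; adjusted p = 0.763), 1 of 10 genes of cysteine use and sulfur oxidation (list median -0.04). The call ended in 5 of the 8 fits that left out 1 mouse (without control replicate 1 or 2, or without AF1 peptide replicate 1, 2 or 3, unadjusted p = 0.0512 to 0.141), and with limma without the intensity trend (unadjusted p = 0.0736) or each gene's own variance (unadjusted p = 0.08). Gclc, the catalytic subunit, was 6344, 8451, 8227 and 5619 in control and 3162, 6013, 6086 and 7436 in treated mice, lowest in replicate 1 where Cbs and Cth were highest (limma, -0.38 ± 0.25, unadjusted p = 0.151). Cdo1, which oxidizes cysteine toward taurine and sulfate, was 25633 to 41084 in the 8 mice, with the groups overlapping throughout (limma, -0.00 ± 0.18, unadjusted p = 0.984).

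On the nicotinamide side, Nmnat3, which makes NAD in mitochondria, was 384, 307, 355 and 302 in control mice and 411, 477, 372 and 416 in AF1 peptide-treated mice, with treated replicate 3 inside the control range. It was higher (limma, log2 fold change 0.31 ± 0.12, unadjusted p = 0.0258; adjusted p = 0.763), 1 of 9 genes of nicotinamide and NAD supply (list median 0.13). The unadjusted p value was above 0.05 without control replicate 2 (0.0696) or 4 (0.0724), without AF1 peptide replicate 2 (0.0789) and with libraries scaled to equal totals (0.128). Aox1, an aldehyde oxidase that clears the methylated nicotinamide NNMT makes, was 7385 to 10451 in the 8 mice (limma, -0.06 ± 0.13, unadjusted p = 0.633) and did not share the high value of Nnmt in replicate 1, where it was 8072.

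Without AF1 peptide replicate 1, 6 of the 57 neighbouring genes were under 0.05 (10.5%, beside 10.1% of all genes tested), 2 higher and 4 lower. They were Chdh and Nmnat3 again, with Suox, Nadsyn1, Qprt and Aox3, which are named here after their values were seen. Gclm was no longer among them.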

How the data were processed

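Liver RNA of 4 control and 4 AF1 peptide-treated db/db mice was sequenced from stranded mRNA libraries. The authors trimmed reads with Trim Galore 0.6.7, aligned them with HISAT2, sorted them with SAMtools 1.17 and used GenomicAlignments to count reads in genes. The authors deposited a signal per gene and mouse, the normalized read count, which is reads divided by 1 size factor per library. The submitters' processing notes name the build mm39; the annotation, the use of strand and the normalization tool are not given in the sources used here. Whole reads could be recovered (100% of 172256 values within 0.001).

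Groups and replicate numbers came from the sample labels, which call the mice biological replicates. The log2(normalized count + 1) of 15989 genes (mean of at least 10) was tested with limma 3.58.1 with an intensity trend in R 4.3.3, on 8 mice without covariates. Genes were called at an unadjusted p value under 0.05, the threshold of the study's methods, and p values were adjusted by Benjamini-Hochberg over all genes tested. Fold changes on this scale understate those of low genes. The fit was first tested on simulated counts, in which no mouse was made to stand apart from its group. That test therefore does not cover a library such as AF1 peptide replicate 1. At an unadjusted p value under 0.05, count tests of the recovered reads called 1036 genes (edgeR 4.0.16) and 1008 genes (DESeq2 1.42.0). These were alternatives, as were pseudocounts of 0.5 and 5, other filters, scalings and variance models, the replicate number as a block and each mouse left out. The deviations of same-numbered mice correlated at 0.235, 0.0238, 0.2165 and -0.064 for replicates 1 to 4; as they were not all over 0.1, the numbers were not taken to pair the mice.

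The members, the lists and the tests were chosen with earlier results of these data known. Each member is named, with neighbouring genes called in the test, 5 neighbours whatever their values (Mat2a, Mtrr, Gclc, Cdo1 and Aox1; 1 further gene is not reported here), and the 3 genes most like each of the 2 members with the smallest p values. Lengths, shared 50-base words and coding sequences came from GENCODE M21 (GRCm38) and promoters from RefSeq (GRCm38.p6), matched by symbol. Depth was 23031880 to 45117528 reads per mouse.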

Additional observations from a re-analysis of the deposited data

Results flagged for a closer look

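Within each group of 4 mice, the gap between an extreme value and its neighbour was divided by the range of the group and set against Dixon's 95% critical value for 4 values. Of 50 such groups (the members, the neighbouring genes named, ratios of gene pairs, the mitochondrial share and the first principal component), 10 passed it; chance passes about 1 in 20. In 8 of the 10 the mouse was AF1 peptide replicate 1, as the highest of its group. Its ratio was 0.941 for Gnmt, 0.982 for Pemt, 0.916 for Nnmt, 0.88 for Cbs and 0.894 for Cth. It was 0.923 for Mat1a over Mat2a, 0.901 for Gnmt over Pemt and 0.843 for the first principal component. That component is drawn from the same 8 mice to hold the most variance, and its sign was set to make this mouse positive. Its pass is therefore not a separate result, and its side carries no information. Control replicate 1 was far above the other control mice in Cbs (0.878), and AF1 peptide replicate 3 was far below the other treated mice in Bhmt2 (0.889). Measures of one mouse are not independent of each other.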

How the results depend on the processing

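The 1 alternative in which a member had an unadjusted p value under 0.05 was the fit without AF1 peptide replicate 1 (1 gene, Gnmt; range over the 8 fits that left out a mouse, 0 to 1); DESeq2 gave p values to 8 of the 10 members, not to Gnmt and Nnmt. The count of neighbouring genes, 3 with all mice, was 2 to 4 under the other filters, pseudocounts, scalings, variance models and count tests, 0 with a fold change of more than 1.3 required, 0 with adjusted p values, and 0 to 6 with a mouse left out (0 without control replicate 2, 1 without AF1 peptide replicate 2, 6 without control replicate 3 and without AF1 peptide replicate 1). With the replicate block it was 3, and 0 members; the mice share only a number, and over all genes the block moved the calls from 990 to 1244.

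Log2 fold changes changed sign under equal totals for Pemt (-0.078) and Bhmt2 (-0.0066), and for Cdo1 with edgeR (0.0050) and DESeq2 (0.0082). With each mouse left out they ranged from -0.055 to 0.44 for Mat1a, -0.48 to 0.54 for Gnmt, -0.15 to 0.071 for Pemt, -0.022 to 1.15 for Nnmt, -0.15 to 0.042 for Mtr, -0.26 to 0.33 for Cbs, -0.64 to 0.69 for Cth, -0.13 to 0.10 for Cdo1 and -0.16 to 0.0051 for Aox1. Ahcy (0.093 to 0.55), Bhmt (0.062 to 0.38) and Bhmt2 (0.045 to 0.15) stayed positive in these 8 fits but moved in size. The cause of these changes was not tested beyond which mouse or scaling they came with. With 4 mice per group the intervals of Gnmt, Nnmt and Cth hold changes of more than 2-fold, so that these data do not bound their change within 2-fold.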

Other observations

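Genes just outside the member set that take part in the same steps gave 4 further unadjusted p values under 0.05 by limma without AF1 peptide replicate 1 (0.00611 to 0.0498; adjusted p values of 0.453 to 0.497), and were chosen after their values were seen. In all, 6 of 57 neighbouring genes (10.5%) were under 0.05 in that fit, beside 10.1% of all genes tested. Qprt, which makes nicotinic acid mononucleotide from tryptophan breakdown, was 1322, 1456, 898 and 1346 in control mice and 871, 746 and 957 in AF1 peptide replicates 2 to 4, but 1761 in replicate 1 (log2 fold change without it, -0.53 ± 0.16). Suox, the last step of sulfur oxidation, was 1167, 1079, 692 and 898 against 765, 498 and 858, with 1955 in replicate 1 (-0.45 ± 0.20 without it). In both genes replicate 1 was thus the highest mouse, as for Gnmt, Cbs and Cth, while the other treated mice lay low. Nadsyn1, which completes NAD from the acid precursor, was 967, 989, 950.2 and 1084 against 1222, 1282 and 1089, and 1021 in replicate 1 (0.26 ± 0.10 without it). Aox3, a liver aldehyde oxidase, was 4714, 3545, 4660.0 and 4601 against 3697, 3422 and 3765, and 5446 in replicate 1 (-0.26 ± 0.12 without it).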
